A study of Caenorhabditis elegans with 4 samples.

Results

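The sites described here are the HTZ-1 peaks of Caenorhabditis elegans chromosome IV that lie outside the parts of this chromosome known for piRNA genes. A peak was taken when it was at most 5 kb wide and its midpoint fell below base 4500000 (the left block), between bases 7000000 and 13500000 (the middle block) or above base 17200000 (the right end), on the WormBase WS220 build. This gave 531 peaks of the 4940 in the larger of the deposited peak lists and of the 821 that this list holds on chromosome IV. The middle block held 336 of them, the left block 184 and the right end 11. Position and width chose the peaks, so neither the blocks nor the upper bound on width is a result.

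The study used ChIP-seq, in which DNA bound to a protein is pulled down with an antibody and sequenced, on HTZ-1 in L3 larvae of the wild-type laboratory strain N2, in a population of males and hermaphrodites grown at 20 °C. It held 2 ChIP libraries, made with an affinity-purified rabbit polyclonal antibody against HTZ-1, and 2 libraries of input DNA. Whole worms were used, so the signal averages over tissues. No treatment, mutant or other stage was compared.

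HTZ-1 is the worm form of H2A.Z, a variant that takes the place of histone H2A in some nucleosomes. It is deposited by SWR1-type remodelling complexes and is known from yeast to animals for its place in nucleosomes next to gene starts. On chromosome IV of C. elegans, most genes for piRNAs (21U-RNAs), small RNAs that act with the Argonaute protein PRG-1 in the germline, lie in broad clusters. These were taken here as a first region from base 4500000 to 7000000 and a second region from base 13500000 to 17200000. No piRNA annotation was read, so these regions are coordinates and not measured clusters.

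Neither peak list gives values per library, and the depth of the libraries is unknown here. The smaller list, with 4282 nuclear peaks, was used as a second call on the same experiment and not as a replicate. Intervals on densities are exact Poisson 95% intervals and those on shares are 95% Wilson intervals. Both cover the counting of peaks alone. The score of a peak is the authors' own value with no stated scale, and it was used within a list only.

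HTZ-1 peaks up to 5 kb were about as dense in these blocks as on the other autosomes taken whole, and denser than in the piRNA regions of the same chromosome. The blocks held 531 peaks in 11.3 Mb, which is 47.1 per Mb (43.2 to 51.3), against 153 peaks in 6.2 Mb of piRNA regions, which is 24.7 per Mb (20.9 to 28.9). The ratio was 1.91 (exact 95% interval 1.59 to 2.30, exact binomial test, two-sided, adjusted p = 3.99e-13 over 3 density comparisons). In the smaller list the blocks held 461 peaks, or 40.9 per Mb, against 21.6 per Mb in the piRNA regions, 1.89 times as dense (1.56 to 2.31, exact binomial test, adjusted p = 2.84e-11).

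Against chromosomes I, II, III and V together, which carried 47.5 peaks per Mb (45.8 to 49.2), the ratio for the blocks was 0.992 (0.903 to 1.09, exact binomial test, adjusted p = 0.888). In the smaller list it was 1.00 (0.908 to 1.11), with 40.9 per Mb in the blocks and 40.7 per Mb on those chromosomes. Peaks cluster and are not independent, so the p-values of this and the other comparisons are too small and the intervals too narrow.

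The contrast with the piRNA regions was unequal between them. This comparison with each region was added after the values were seen. The second region lies towards the right end of the chromosome, so its piRNA genes and its place there cannot be told apart. Against the second region, which held 60 peaks or 16.2 per Mb (12.4 to 20.9), the blocks were 2.91 times as dense (2.22 to 3.86, exact binomial test, adjusted p = 1.11e-18). Against the first region, which held 93 peaks or 37.2 per Mb (30.0 to 45.6), they were 1.27 times as dense (1.01 to 1.60, exact binomial test, adjusted p = 0.0376). The smaller list gave 2.33 (1.79 to 3.07) and 1.48 (1.15 to 1.94). The piRNA regions themselves differed in both lists, with a ratio of first to second of 2.29 (larger list, 1.64 to 3.23) and 1.57 (smaller list, 1.10 to 2.24).

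**Figure D1:**
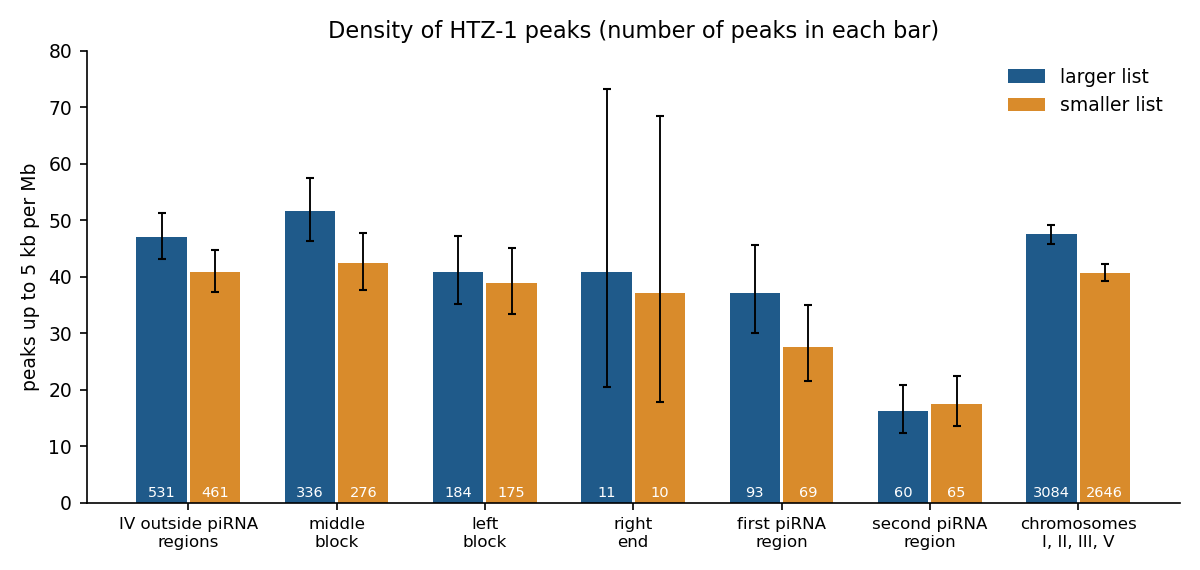
Peaks up to 5 kb per Mb in the blocks of chromosome IV outside the piRNA regions, in each block, in both piRNA regions and on the other autosomes, for the larger and the smaller list. Error bars are exact Poisson 95% intervals and the number in each bar is its count of peaks; the blocks and the other autosomes stand at 47.1 and 47.5 per Mb in the larger list, and the second piRNA region at 16.2 per Mb.

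In the larger list the middle block was denser than the left block. It held 51.7 peaks per Mb (46.3 to 57.5), against 40.9 per Mb (35.2 to 47.2) in the left block, and so was 1.26 times as dense (1.05 to 1.52, exact binomial test, adjusted p = 0.0164). The smaller list gave 42.5 per Mb in the middle block and 38.9 in the left block, or 1.09 times as dense (0.900 to 1.33, exact binomial test, adjusted p = 0.583). The call also ended when peaks closer than 1 kb were merged (ratio 1.20, exact binomial adjusted p = 0.113). It ended among peaks above 383.9, the median score of all nuclear peaks up to 5 kb (1.28, exact binomial adjusted p = 0.0845). It ended too with the middle block cut back to the central part of the chromosome (1.15, exact binomial adjusted p = 0.169). In that setting the rest of the middle block and the right end were counted with the left block, so 1.15 is not a ratio of middle to left alone. The call held with peaks over 5 kb kept (1.40, adjusted p = 9.85e-05) and with the whole peak required inside the block (1.26, adjusted p = 0.0185), again by exact binomial tests. Members covered 13.0% of the middle block and 8.81% of the left block. The right end, taken as 0.269 Mb up to the last base covered by a peak, carried 40.9 per Mb. Ending it on a peak can raise this density. Its 11 peaks leave an interval of 20.4 to 73.2 per Mb.

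Windows of 0.5 Mb show how even the blocks were. The 13 windows of the middle block held 14 to 33 peaks (median 25), and the 9 windows of the left block held 14 to 25 (median 20). Every one of these 22 windows held more peaks than any of the 7 full windows of the second piRNA region, where counts ran from 6 to 11. The 5 windows of the first piRNA region, with 9 to 27 peaks, overlapped both blocks. The smaller list gave 16 to 29 peaks per window in the middle block, 15 to 30 in the left block, 7 to 11 in the second piRNA region and 9 to 21 in the first.

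The richest window of the larger list was base 12000000 to 12500000 in the middle block, with 33 peaks covering 18.7% of it, and the smaller list had 24 there. The window that begins at base 7000000 came next with 31, and was the richest of the middle block in the smaller list, with 29. The poorest window of the middle block was base 10500000 to 11000000, with 14 peaks, beside 16 in the second call. In the left block, windows were fuller towards the tip and again from base 3000000. Counts were 25 and 24 in the first Mb, 23 in the next window, and 17, 16 and 14 from base 1500000 to 3000000. From there to the end of the block they were 25, 20 and 20. The smaller list had its highest count of the left block, 30 peaks, in the window that begins at base 3000000. Its next windows held 16 and 18.

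The limits of the blocks were not alike. At base 13500000 the number of peaks differed steeply between the sides. The 1 Mb of the middle block next to this limit held 51 peaks, against 13 in the 1 Mb of the piRNA region beside it, a ratio of 3.92 (exact 95% interval 2.10 to 7.86). The smaller list held 45 and 19 there, a ratio of 2.37 (1.36 to 4.29). At base 4500000 no such step was seen in the larger list, with 40 peaks in the last 1 Mb of the left block and 40 in the first 1 Mb of the piRNA region (ratio 1.00, 0.629 to 1.59). The smaller list had 34 and 23 (1.48, 0.846 to 2.63). At base 7000000 the block and the piRNA region held 59 and 44 peaks (1.34, 0.892 to 2.03), and 49 and 37 in the second call (1.32, 0.847 to 2.09). The right end had 40.9 per Mb up to the last base covered by a peak. The 0.5 Mb before base 17200000 had 22.0 per Mb (ratio 1.86, 0.731 to 4.73). These ratios at the limits were computed after the densities were seen and carry no test.

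**Figure D2:**
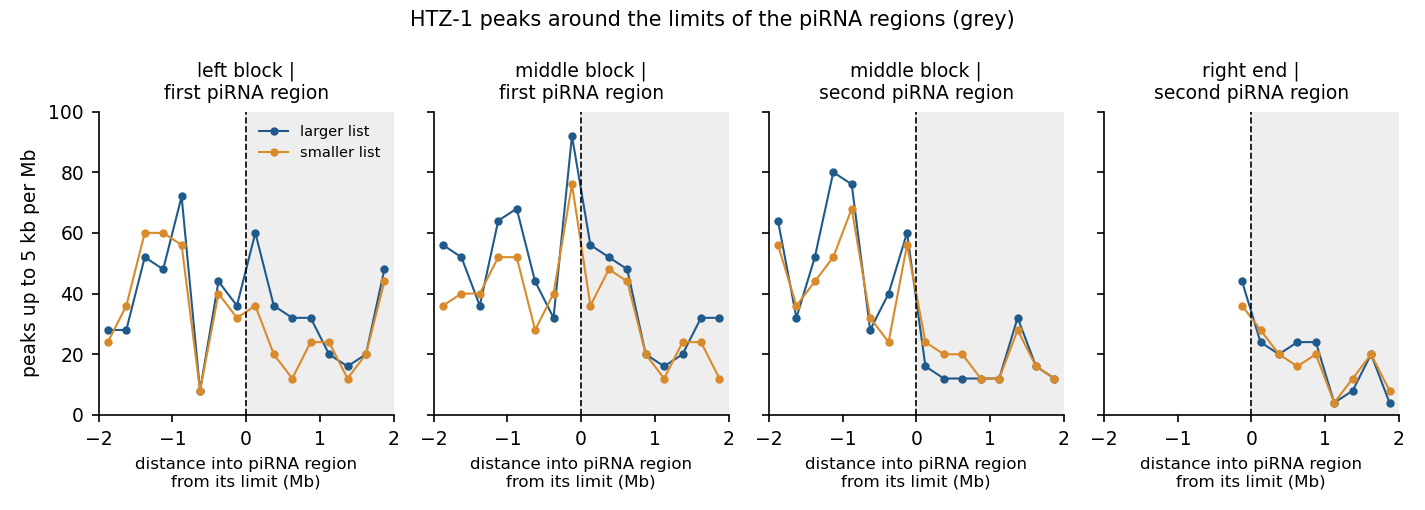
Peaks up to 5 kb per Mb in bins of 0.25 Mb, by distance from each limit between a block (white) and a piRNA region (grey), for both lists. At the limit of the middle block with the second piRNA region the density differs steeply between the sides, with 51 peaks in the 1 Mb of the block and 13 in the 1 Mb of the region in the larger list.

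The peaks nearest the limits were as follows. The last member of the left block lay at 4454166 to 4455462 (1297 bp, score 100.9), and the next peak, at 4508308 to 4512024, already fell in the piRNA region. The first member of the middle block was 7010733 to 7014073 (3341 bp, score 538.2). Its last member, 13499260 to 13500563 (1304 bp, score 74.6), had its midpoint just below base 13500000, and a peak just outside began at 13501734. The first member of the right end was 17249452 to 17251300 (1849 bp, score 462.5).

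Member widths had a median of 2142 bp (quartiles 1574.5 and 2927 bp), and the median was larger in the middle block than in the left block. The median width was 2291 bp in the middle block (quartiles 1691 and 3153 bp, binomial 95% interval of the median 2172 to 2464 bp), 1951 bp in the left block (quartiles 1382 and 2670.5 bp, interval 1803 to 2062 bp) and 1979 bp at the right end. Peaks up to 1.5 kb made up 57 of 336 members (17.0%) in the middle block and 58 of 184 (31.5%) in the left block. Peaks over 3 kb made up 27.4% and 20.1%. The smaller list gave medians of 2334.5 bp in the middle block and 2001 bp in the left block. Widths are bounded by the way members were chosen, so they were not tested.

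The narrowest members measured 1032 bp (7979214 to 7980245, middle block), 1035 bp (4401274 to 4402308, left block) and 1052 bp (17344551 to 17345602, right end). The widest were 4971 bp (12449613 to 12454583, middle block), 4975 bp (793091 to 798065, left block) and 4627 bp (17374734 to 17379360, right end). Just beyond the bound lay peaks of 5030 bp at 3802452 to 3807481 and 5053 bp at 3734841 to 3739893. The bound left out 83 of 419 peaks of any width in the middle block (19.8%, 16.3 to 23.9%), 23 of 207 in the left block (11.1%, 7.52 to 16.1%) and 2 of 13 at the right end. With these kept, the densities were 64.5 per Mb in the middle block and 46.0 per Mb in the left block.

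Scores of members ran from 50.4 to 3172 with a median of 436.1. The medians were 418.0 in the middle block (quartiles 163.6 and 1140), 432.6 in the left block (138.6 and 1216) and 787.3 at the right end. The difference in width between the blocks thus had no counterpart in the median score of the larger list. By the second call the wider middle block also scored higher at the median, with 346.96 against 282.45 in the left block. Its lower quartile was higher too (140.1 against 100.2), but its upper quartile was lower (694.6 against 814.8). These score differences were not tested. In the larger list a score of exactly 3100 was shared by 16 members of the middle block and 17 of the left block, and only 2 members scored above it. Those were 9855763 to 9859864 (4102 bp, score 3172) and 8615825 to 8620434 (4610 bp, score 3148), both in the middle block. Their partners in the smaller list were 4101 and 4632 bp wide. Over all nuclear chromosomes 199 peaks up to 5 kb shared the score of 3100 and 24 lay above it. Why this value recurs is not stated. Members at 3100 and the 2 above it thus cannot be ranked by strength of signal. Of the members at 3100, those with the lowest coordinates were 7164830 to 7169705 in the middle block, and 239275 to 242860, 793091 to 798065 and 839049 to 842770 in the left block. Score went with width, with a Spearman rho of 0.67 over the 336 members of the middle block and 0.75 over the 184 of the left block. Both values of a peak come from the same reads and the same call, and peaks are not independent replicates.

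**Figure D3:**
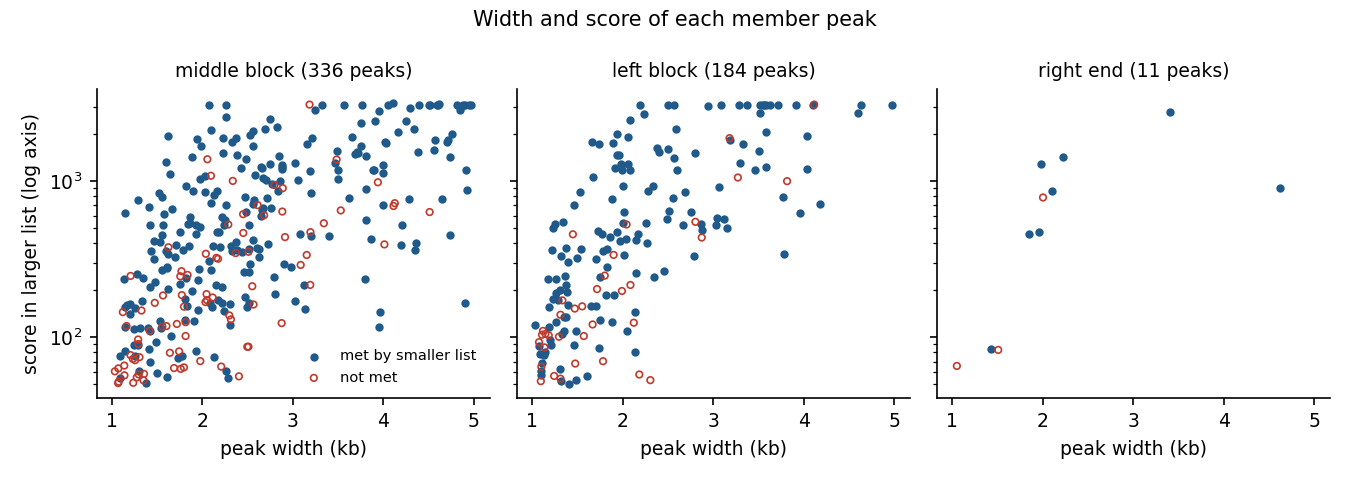
Width (kb) and score (log axis) of each member in the middle block, the left block and at the right end, in the larger list. Filled points overlap a peak of the smaller list and open points do not; open points are more frequent at low scores, and a row of points stands at the score of 3100.

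Gaps between members ran from 16 bp to 246.8 kb. Peaks over 5 kb were not counted, so a gap can hold such a peak. The gap from a member to the next one in its block had a median of 8727 bp in the middle block and 8405 bp in the left block, with quartiles of 1565 and 25015 bp and of 2021 and 27957.5 bp. Of 528 gaps, 217 were under 5 kb (41.1%, 37.0 to 45.3%), against 38.9% of the gaps between peaks up to 5 kb on all nuclear chromosomes. Gaps under 1 kb numbered 99, of which 28 were under 200 bp, and 51 gaps exceeded 50 kb.

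The share of short gaps did not differ detectably between the sets compared. It was 42.4% in the middle block and 37.7% in the left block (Fisher's exact test, two-sided, adjusted p = 0.597 over 3 comparisons). It was 41.1% in the blocks and 37.1% in the piRNA regions (56 of 151 gaps, Fisher's exact adjusted p = 0.597), and 40.9% on the other autosomes (Fisher's exact adjusted p = 0.962). In the smaller list 127 of 458 gaps in the blocks were under 5 kb (27.7%), beside a background of 26.2% over all nuclear chromosomes. There were 33 gaps under 1 kb in that list. Neighbouring gaps share a peak, and a p above the threshold does not show that the sets were spaced alike.

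**Figure D4:**
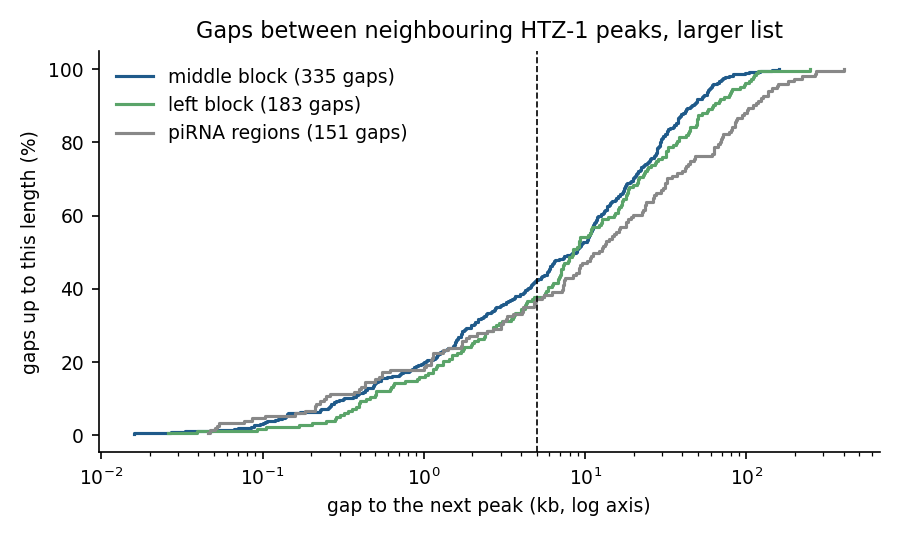
Cumulative share of gaps (%) by gap length (kb, log axis) for the middle block, the left block and both piRNA regions together in the larger list, with 5 kb marked by the dashed line. The curves lie close together up to 5 kb, where they stand at 42.4%, 37.7% and 37.1%, and part at long gaps, with medians of 8727, 8405 and 12105 bp. The curve of the piRNA regions pools 43.5% short gaps in the first region with 27.1% in the second.

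The longest gaps of the middle block ran from 12931608 to 13090134 (158.5 kb), where no peak of any width lay inside in either list, and from 10551368 to 10696262 (144.9 kb), where each list had 1 peak. In the left block they ran from 3799944 to 4046765 (246.8 kb) and from 1805790 to 1922867 (117.1 kb). The first of these held 2 peaks over 5 kb in the larger list and 4 peaks in the smaller list. The second held no whole peak of either list. At the right end the longest gaps measured 44.8 kb, around a single broad peak, and 29.1 kb.

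Runs of at least 3 members, each less than 5 kb from the next, numbered 39 in the middle block, 19 in the left block and 2 at the right end. Peaks over 5 kb did not count as neighbours, so a member that stood alone can lie beside one. Together the runs took in 219 of the 531 members (41.2%), beside 196 members that stood alone and 116 in pairs. The same count over all nuclear chromosomes gave 35.3% in runs, and over the other autosomes 37.6%. The share in runs was 40.8% in the middle block and 40.8% in the left block, with 33.0% and 45.1% of members alone. The smaller list differed, with 12.3% in runs in the middle block and 26.9% in the left block, and 51.4% and 53.7% alone. None of these shares was tested. Most runs were short, with 38 of 3 peaks, 13 of 4 and 9 of 5 or more. In the smaller list 26 runs took in 18.2% of the 461 members, beside 17.1% over all nuclear chromosomes.

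The longest run of the middle block had 8 peaks between 10834499 and 10861410, a span of 26.9 kb of which 64.6% was covered. It lay inside the poorest window of that block, base 10500000 to 11000000, whose 14 peaks thus included 8 in a single run. Its peaks were 1205 to 2876 bp wide with gaps of 49 to 2946 bp, and scored 76.9 to 1276. The highest was 10857281 to 10860156, with 2876 bp and a score of 1276. The smaller list met 4 of the 8.

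The middle block had 3 runs of 6 peaks, of which those of shorter span are described. The third ran from 10355739 to 10391363. The run from 10402737 to 10425920 covered 53.3% of 23.2 kb, and the smaller list placed a single peak of 6289 bp over 3 of its members (10408766 to 10409855, 10409941 to 10413334 and 10413424 to 10415027, scores 75.5, 446.1 and 282.8). The run from 7144581 to 7169705 covered 81.4% of 25.1 kb, in the dense window that begins at base 7000000. It ended in a peak of 4876 bp with a score of 3100 and included a peak of 4740 bp with a score of 1422. Between these, the members at 7153341 to 7157350 (score 393.9) and 7161909 to 7164311 (score 56.3) had no partner in the smaller list.

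In the left block the longest run held 7 peaks from 3520287 to 3544904, spread more loosely, with 44.3% of 24.6 kb covered. Its peaks were 1077 to 2286 bp wide and scored 50.4 to 861.6, and the smaller list had 4 peaks there. Of 4 runs of 5 peaks in this block, those of shortest span ran from 764586 to 777891 and from 839049 to 855357. The first was built around 1 strong peak, 771029 to 774210 with a score of 1841, beside 4 peaks with scores of 64.8 to 139.5. The other began with a peak of 3722 bp at a score of 3100 and ended with 853424 to 855357 at a score of 1466.

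**Figure D5:**
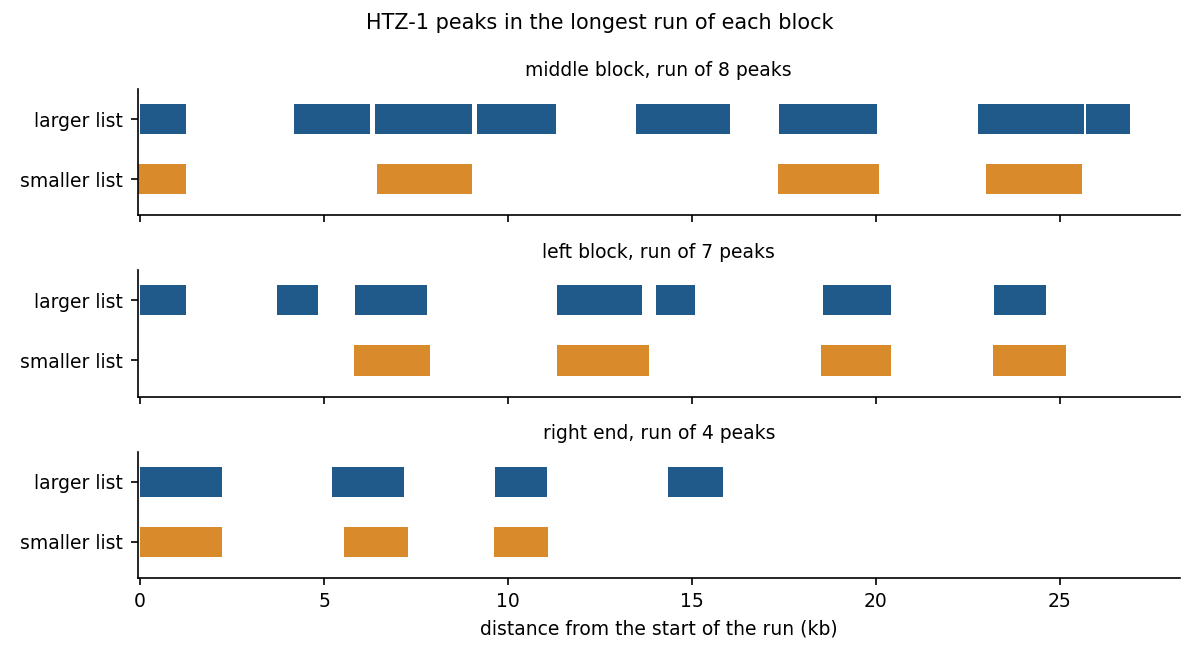
Peaks of the larger and the smaller list in the longest run of the middle block, the left block and the right end, by distance from the start of the run (kb), with each bar as long as its peak. The larger list has 8, 7 and 4 peaks, and the smaller list has 4, 4 and 3.

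The right end held 11 members, in 2 runs, a pair and 2 lone peaks. The first run, from 17267045 to 17282890, had 4 peaks of 1430 to 2221 bp with gaps of 2464 to 3269 bp, led by 17267045 to 17269265 with a score of 1432. The second, from 17327716 to 17335886, had 3 peaks with gaps of 36 to 621 bp that covered 92.0% of 8.17 kb. It held the highest score of the right end, 2777 at 17332483 to 17335886, beside scores of 868.2 and 787.3. The pair, 17374734 to 17379360 and 17379457 to 17381435, scored 909.8 and 1289. The lone peaks were 17249452 to 17251300 and the narrow 17344551 to 17345602, with a score of 65.6. The smaller list met 8 of the 11 and missed the last peak of the first run, the middle peak of the second run and the narrow lone peak.

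The second call met most members, and placed their edges closely. Of the 531 members, 409 (77.0%, 73.3 to 80.4%) were met by the smaller list, with an overlap of 1 bp or more, against 78.6% of all peaks up to 5 kb in the larger list. The share was 75.0% in the middle block and 81.0% in the left block (Fisher's exact test, two-sided, adjusted p = 0.383 over 3 comparisons). It was 77.0% in the blocks and 81.7% in the piRNA regions (Fisher's exact adjusted p = 0.401), and 76.5% on the other autosomes (Fisher's exact adjusted p = 0.825). Taken apart, after the values were seen, 75.3% of peaks in the first piRNA region and 91.7% in the second were met. The blocks lay below the second region (Fisher's exact adjusted p = 0.0158) and did not differ detectably from the first (adjusted p = 0.692). In the other direction, 385 of the 461 members of the smaller list (83.5%, 79.9 to 86.6%) met a peak of the larger list, against a background of 84.7%. There the blocks did not differ detectably from the second region, with 81.5% met (Fisher's exact adjusted p = 0.723), or from the first, with 89.9% (adjusted p = 0.326). Both lists describe the same experiment, so these shares compare calls and not replicates.

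Among the 381 members with a single partner that met no other peak, starts differed by a median of 19 bp and ends by a median of 20 bp. In 232 of these pairs (60.9%) both edges lay within 50 bp, and in 329 (86.4%) within 200 bp. Another 28 members shared their partner with a neighbour, as in the run at 10402737, and 122 had no partner. No member met more than 1 peak of the smaller list, whereas 4 members of the smaller list met several peaks of the larger list. That count leaves out peaks of the smaller list over 5 kb, some of which also met several members.

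Whether a member was met went with its score, its width and its neighbours. Of the 76 members with a score under 100, 37 were met (48.7%, 37.8 to 59.7%), against 145 of the 154 with a score over 1000 (94.2%, 89.3 to 96.9%). By width the share ran from 65.8% (56.8 to 73.8%) up to 1.5 kb to 90.2% (79.0 to 95.7%) at 4 to 5 kb. Members in runs were met less often, at 144 of 219 (65.8%, 59.2 to 71.7%), than members alone, at 171 of 196 (87.2%, 81.8 to 91.2%). The median score was 466.5 for members in runs and 401.3 for members alone, and their met shares were not compared within score classes. The same order of met shares held in the middle block, with 63.5% and 85.6%, and in the left block, with 69.3% and 90.4%. At the right end 5 of 7 members in runs and 1 of 2 alone were met, too few to give an order. In the smaller list the order was the other way, with 89.3% (80.9 to 94.3%) of members in runs and 81.6% (76.2 to 86.0%) of members alone met by the larger list. These classes were set after the values were seen and carry no test. They were not counted outside the blocks, so these patterns may hold for the lists at large.

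Some members without a partner stood side by side. With 84 of 336 members unmet in the middle block and 35 of 184 in the left block, some would do so in any order. The number of stretches to be had from these shares was not computed, so the stretches are a description and not a sign of clustering. The stretches of 3 or more successive unmet members, picked after the values were seen, numbered 5 in the middle block and 1 in the left block. The longest held 7 members between 8687008 and 8780641, with scores of 50.9 to 1383. In this stretch the larger list also had 6 peaks over 5 kb, and the smaller list had 4 peaks, the widest of 6534 bp. The stretch in the left block, 1049611 to 1061528, held 4 members in 11.9 kb where the smaller list had no peak. Their scores were 1002, 3100, 157.9 and 70.3, and the nearest peak of the smaller list lay 8408 bp from the first of them.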

How the data were processed

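The authors deposited 2 peak lists as GFF3 tables on WormBase WS220, per the file headers, with start, end and a score per peak. The submitters' processing notes name BWA, without a version. Comment lines record a coordinate conversion that changed the internal structure of 3 members (larger list) and 2 (smaller list). Both lists give MA2C as their source but number their peaks under the name MACS. The deposited label of the larger list also names MACS, so the source entry alone names MA2C. The caller is not stated otherwise. Its settings, the use of input and pooling are not given in the sources used here. Depth per library is unknown, and no value belongs to a library.

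Densities, widths, gaps, runs and overlaps were computed with Python 3.11.15, NumPy 2.4.6, pandas 2.3.3 and SciPy 1.17.1, and tested on simulated peaks. Figures were drawn with matplotlib 3.10.9. Chromosome lengths ran up to the last base covered by a peak. Adjustment is Benjamini-Hochberg over 3 comparisons per measure. Sites named by position are, per block, the 3 longest runs (ties by shorter span), highest scores, extreme widths and longest gaps. Exceptions are marked as picked after values were seen. Members, tests and alternatives were chosen with earlier results of these data known. The gene table at hand is on another build, so no gene is named and no sequence was read.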

Additional observations from a re-analysis of the deposited data

How the results depend on the processing

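The excess density outside the piRNA regions passed the exact binomial test under each alternative tried for it. The ratios and differences given below did not pass their tests, with the exception named. With the smaller list in place of the larger, the middle to left density ratio was 1.09, the ratio to other autosomes 1.004, the short-gap difference of middle minus left -2.19 percentage points, and the met-share differences 4.94 points (middle minus left) and -2.09 (blocks minus other autosomes). The middle block then had 42.5 peaks per Mb, and the blocks had 27.7% short gaps, 26 runs, 18.2% of members in runs and 83.5% met. With peaks over 5 kb kept, these were 64.5 per Mb with a median width of 2600 bp in the middle block, 50.2% short gaps, 51.2% in runs and a ratio to other autosomes of 1.01. The 50% of peaks with the higher scores were taken from all nuclear peaks up to 5 kb. These gave a middle to left ratio of 1.28 (27.2 and 21.3 per Mb, median widths 2842 and 2570 bp) and a ratio to other autosomes of 1.05. They also gave 25.5% short gaps, 12 runs, 15.7% in runs and 88.97% met, a short-gap difference of -2.55 points against the piRNA regions, and met-share differences of 2.15 points against the piRNA regions and -0.12 against other autosomes. Merging peaks closer than 1 kb gave 41.4 and 34.4 per Mb in the middle and left blocks (ratio 1.20). A middle block cut back to the central part of the chromosome gave a ratio of 1.15. There the rest of the middle block and the right end were counted with the left block. A gap limit of 2 kb gave 28.4% short gaps, 34 runs and 21.3% in runs. A limit of 10 kb gave 53.6% and 57.4%, with short-gap differences of -1.26 points (middle minus left) and -1.14 (blocks minus other autosomes). Gaps to the next peak of any width gave 49.7% and 51.2%, with a short-gap difference of 9.67 points (middle minus left, Fisher's exact adjusted p = 0.129). Against the first piRNA region alone, an alternative added after seeing the data, the met-share difference was 1.76 points, and against the second alone -14.6 points, which passed its test. Reciprocal overlap of 50% gave a met-share difference of -0.32 points against other autosomes. The cause of these changes was not tested beyond what each setting changes by construction. No paired analysis was possible because the lists hold no values per library, and for the same reason no library could be left out.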

Other observations

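In the smaller list, members tied at a score of exactly 3100 were often not met. That list held 73 peaks up to 5 kb at this score over all nuclear chromosomes. Their met share was not computed, so the pattern may not be particular to these blocks. In the blocks, 3 of its 10 members at a score of exactly 3100 (30.0%, 95% Wilson interval 10.8 to 60.3%) overlapped a peak of the larger list, against 61 of its 62 members with scores from 1000 to under 3100 (98.4%, 91.4 to 99.7%) and 3 of its 3 members above 3100. Of the larger list's 33 members at exactly 3100, 31 were met by the smaller list (93.9%, 80.4 to 98.3%). The 7 unmet peaks were 2373 to 4082 bp wide, with 3 in the left block (2828140 to 2831097, 3205852 to 3209933 and 3366079 to 3369760) and 4 in the middle block (9045456 to 9049165, 10942923 to 10946684, 12315846 to 12319793 and 13360082 to 13362454). The nearest peak of the larger list lay 1982 to 14550 bp from them. These sites were picked after their values were seen.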
